A study of Mus musculus with 9 samples.

Results

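The Glis genes Glis1, Glis2 and Glis3 were followed in green cells sorted from mouse limbs at E12.5. They were picked by symbol, and all 3 were found among the 24102 rows of the deposited expression table. The cells carried the mTmG reporter at Rosa, in which Cre recombinase switches on a green membrane protein, and Cre was placed at 1 allele of Shox2, a homeobox gene of the proximal limb. Control cells were Shox2(Cre/+);Rosa(mTmG), so the controls too had only 1 normal Shox2 allele. Mutant cells were Shox2(Cre/-);Rosa(mTmG), with a mutant second allele. The green label also stays in the descendants of cells that once made Cre. Values were read from 3 control and 3 mutant columns, 1 of each from litters 1, 2 and 3. Of the 9 samples of the series, 3 were controls, 4 were mutants and 2 were wild-type whole limbs, which were not analysed here. Litter 1 has 2 mutant samples and 1 mutant column, and no source used here says whether the column is 1 of them or both.

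Glis proteins are transcription factors with a run of C2H2 zinc fingers closely related to those of the Gli and Zic proteins. The Gli proteins carry hedgehog signals to the nucleus, in part through the primary cilium, while Glis proteins are best known from other organs. Glis1 is known for promoting the reprogramming of somatic cells to pluripotency. Glis2 is needed to keep the kidney intact and is mutated in a form of nephronophthisis, a cystic and fibrotic kidney disease of cilia. Glis3 is needed in the pancreatic beta cell, the thyroid and the kidney, and has been tied to osteoblast differentiation in cultured cells.

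Promoter sequences are shown for Glis3 and Glis1, the members with an entry among the promoters used here. Glis2 had no entry and could not be shown. Glis3 is in the deposited list of genes that its file name calls directly repressed by Shox2. They are RefSeq sequences of build GRCm38.p6, each 300 bases long, from 250 before to 50 after a transcription start, 5′ to 3′ on the gene's strand. Capitals mark CG dinucleotides. The Glis3 window is chr19:28680028-28680327 on the minus strand and the Glis1 window is chr4:107434469-107434768 on the plus strand.
Glis3: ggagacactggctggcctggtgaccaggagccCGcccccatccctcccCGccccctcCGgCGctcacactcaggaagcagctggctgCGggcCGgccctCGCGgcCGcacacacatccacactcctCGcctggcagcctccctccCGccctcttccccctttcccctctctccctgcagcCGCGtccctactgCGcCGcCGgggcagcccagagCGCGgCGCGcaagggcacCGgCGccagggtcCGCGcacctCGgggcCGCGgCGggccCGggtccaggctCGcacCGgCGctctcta
Glis1: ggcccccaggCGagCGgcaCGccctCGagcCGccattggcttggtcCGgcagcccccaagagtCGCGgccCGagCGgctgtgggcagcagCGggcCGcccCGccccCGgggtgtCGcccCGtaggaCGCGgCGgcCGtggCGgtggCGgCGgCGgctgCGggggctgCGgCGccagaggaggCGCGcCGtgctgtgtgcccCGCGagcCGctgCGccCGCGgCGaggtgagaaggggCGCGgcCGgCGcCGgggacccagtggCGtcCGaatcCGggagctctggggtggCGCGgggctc

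Both windows were rich in CG. The Glis3 window had 32 CG dinucleotides and a GC content of 76.3%, and the Glis1 window had 47 and 81.3%. The medians over 32851 RefSeq promoters of this length were 7 dinucleotides and 52.7%. The homeodomain core TAAT, searched on both strands, was in neither window, whereas 58.0% of the promoters held it. The Gli site GACCACCCA was in neither, against 0.253% of promoters, and the Glis site core TGGGGGGT was in neither, against 1.53%. The last 2 motifs differ in sequence and were counted separately, each on both strands. The CCAAT box was found once in the Glis1 window and was absent from the Glis3 window, against 37.4% of promoters. These counts describe the printed bases only.

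Shox2 separated the labelled genotypes in each litter. It was at 217, 222 and 210 FPKM (fragments per kilobase of transcript, scaled to library size) in the controls of litters 1, 2 and 3, and at 16.7, 18.3 and 96.9 FPKM in the mutants. The mutant column thus held 7.68%, 8.25% and 46.2% of its litter's control. The fixed limb mesenchyme markers were present in every column, with Prrx1, a homeobox gene of limb mesenchyme, at 106 FPKM or more. Summed, the 10 measured markers were at 870.2 to 1655 FPKM in controls and 771 to 1386 FPKM in mutants, and none was at 0. In litter 2 the Y-linked gene Eif2s3y was at 23.9 FPKM in the control and 0 in the mutant, so sex composition and genotype cannot be told apart there. Over 12314 rows that passed a filter of 1 FPKM in at least 3 columns, limma called 0 rows in either direction at an adjusted p under 0.05, or 0%. Even Shox2 had a limma adjusted p of 0.803, or 0.0998 with litter as a replicate block. A count of 0 called in a gene list therefore does not show that its genes were unchanged. Without adjustment 272 rows were higher and 167 lower at a p under 0.05, and with limma column weights 15 rows passed after adjustment.

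The members were proposed from their values in mutants and controls, so those values are given as a description, with no test. All 3 genes passed the filter in all 6 columns, so none entered through the mutant group alone. Values are on the linear FPKM scale unless a log2 difference is named. Such a difference is of log2(FPKM + 1), mutant minus control, and understates the change of genes at a few FPKM.

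Glis3 was the member that differed most. It was at 2.42, 1.36 and 2.58 FPKM in the controls of litters 1, 2 and 3, and at 6.36, 7.26 and 5.84 FPKM in the mutants. Every mutant column was above every control column, and the lowest mutant, from litter 3, was 5.84 FPKM against a highest control of 2.58 FPKM. The group means were 2.12 ± 0.668 FPKM (SD, n = 3) in controls and 6.49 ± 0.718 FPKM (SD, n = 3) in mutants, a ratio of 3.06. Within litters the ratio was 2.63, 5.35 and 2.26, and the log2 differences were 1.10, 1.81 and 0.93. Litter 2, with the largest ratio, had both the lowest control and the highest mutant. The mean log2 difference was 1.28, and 33 of the 12314 rows, or 0.268%, had a larger one. It was 1.02 without the litter 2 pair, the lowest value over the settings tried.

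Glis1 was low in all controls and split the mutants by litter. It was at 1.46, 1.52 and 1.79 FPKM in the controls and at 1.47, 4.14 and 3.46 FPKM in the mutants of litters 1, 2 and 3. The litter 1 mutant lay among the controls, so the groups overlapped, while the litter 2 and litter 3 mutants were above every control. The means were 1.59 ± 0.175 FPKM (SD, n = 3) and 3.02 ± 1.39 FPKM (SD, n = 3). Ratios within litters were 1.01, 2.73 and 1.93, and log2 differences were 0.01, 1.03 and 0.68. The mean log2 difference of 0.57 was close to the SD between litters, 0.52. It was 0.89 without the litter 1 mutant and 0.34 without the litter 2 pair, so the size depended on which litters were counted.

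Glis2 was the most abundant Glis gene and showed little difference. It was at 19.1, 28.0 and 26.7 FPKM in the controls and at 13.8, 27.8 and 23.5 FPKM in the mutants of litters 1, 2 and 3. The groups overlapped, and both columns of litter 1 were below all columns of the other litters. The means were 24.6 ± 4.79 FPKM (SD, n = 3) and 21.7 ± 7.16 FPKM (SD, n = 3). The ratios within litters were 0.721, 0.991 and 0.882. The mean log2 difference was -0.21, and it was 0.07 without the litter 1 mutant, which turned its direction. Leaving out that mutant alone kept the low control of litter 1. Without the whole pair of litter 1, 2 or 3 the difference stayed below 0, at -0.09, -0.31 and -0.23.

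**Figure D1:**
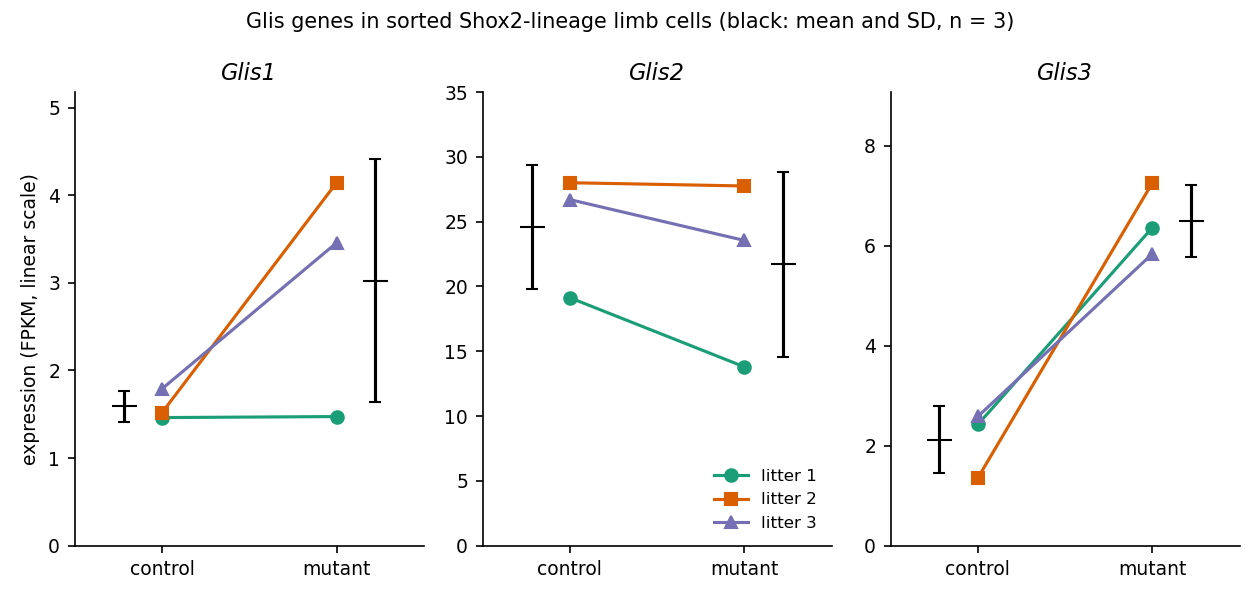
Expression of Glis1, Glis2 and Glis3 in FPKM on linear axes that start at 0 and differ between panels; each line joins the control and mutant column of 1 litter, and black marks give the mean and SD of 3 columns. Glis3 is higher in each mutant, Glis1 is higher in litters 2 and 3 and level in litter 1, and Glis2 differs more between litters than between genotypes.

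A difference in bulk RNA may come from the number of cells of a type or from RNA per cell, which cannot be told apart here. Read against all rows, values above those of every control in every mutant were seen in 520 rows, or 4.22%, and 1 of the 3 Glis genes, Glis3, was among them. The reverse was seen in 5.03% of rows and in 0 Glis genes. A ratio of at least 2 in each litter was seen in 41 rows, or 0.333%, again with Glis3 among them and Glis1 and Glis2 outside. Any increase in 3 of 3 litters was seen in 15.7% of rows, and any decrease in 22.3%. By this looser count Glis3 and Glis1 were higher in 3 of 3 litters and Glis2 was lower in 3 of 3, although Glis1 differed by 0.01 in litter 1 and Glis2 by -0.01 in litter 2 on the log2 scale. These counts used the contrast that chose the members, and nothing is read from them about the family.

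**Figure D2:**
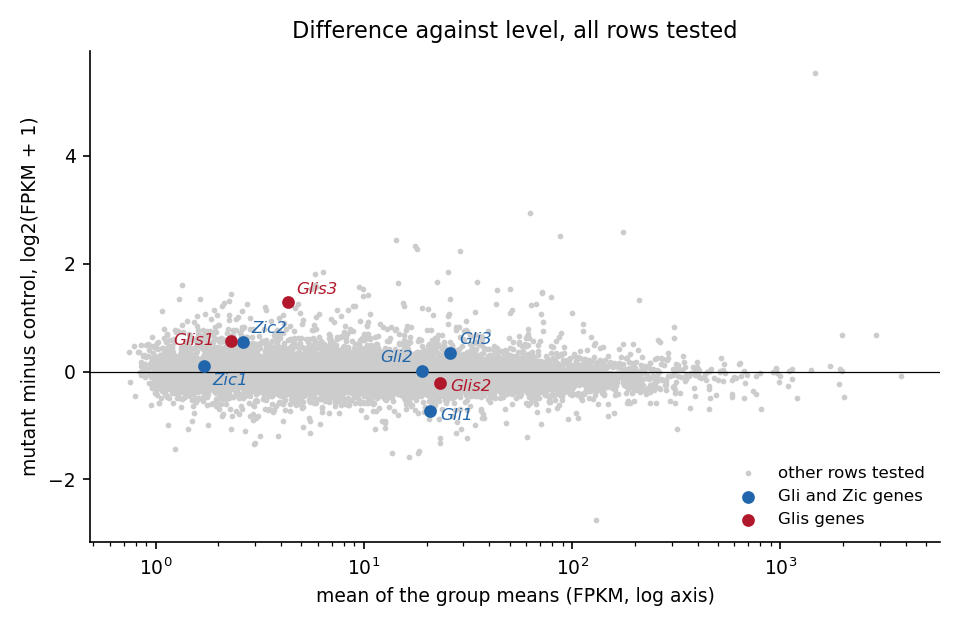
Mean log2(FPKM + 1) difference, mutant minus control, against the mean of the group means in FPKM on a log axis, for all 12314 rows tested; red points are Glis genes and blue points are 5 Gli and Zic genes. Glis3, at 1.28, lies at the upper edge of rows of its level, while Glis2, at -0.21, lies among the bulk.

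FPKM is scaled by transcript length, so levels of the 3 genes can be set side by side. In controls the order by mean was Glis2, Glis3, Glis1. Glis2 stood above the others in every column, in controls at 7.89 to 20.7 times Glis3 and 13.1 to 18.5 times Glis1. Glis3 and Glis1 did not separate in controls, since Glis3 was above Glis1 in litters 1 and 3 and below it in litter 2, with a ratio of 0.893. In mutants Glis3 was above Glis1 in every litter, at 4.32, 1.75 and 1.69 times its level, and its lowest value was above the highest Glis1 value. Glis2 over Glis3 narrowed to 2.17, 3.82 and 4.03 in the mutants, and Glis2 over Glis1 to 9.36, 6.70 and 6.81.

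As a share of the summed FPKM of the family, Glis3 made up 10.5%, 4.39% and 8.32% in the controls of litters 1, 2 and 3 and 29.4%, 18.5% and 17.8% in the mutants. The share of Glis2 was 83.1%, 90.7% and 85.9% in controls and 63.8%, 70.9% and 71.7% in mutants. Neither share overlapped between the groups. Glis1 was at 6.35%, 4.92% and 5.76% in controls and at 6.81%, 10.6% and 10.5% in mutants. The summed level itself was 23.0, 30.9 and 31.1 FPKM in controls and 21.6, 39.2 and 32.8 FPKM in mutants, and overlapped. The shares of a column make up a fixed whole, so a larger Glis3 share lowers the rest. They restate the values that chose the members, and nothing is read from them about the family. The total did not separate the genotypes.

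**Figure D3:**
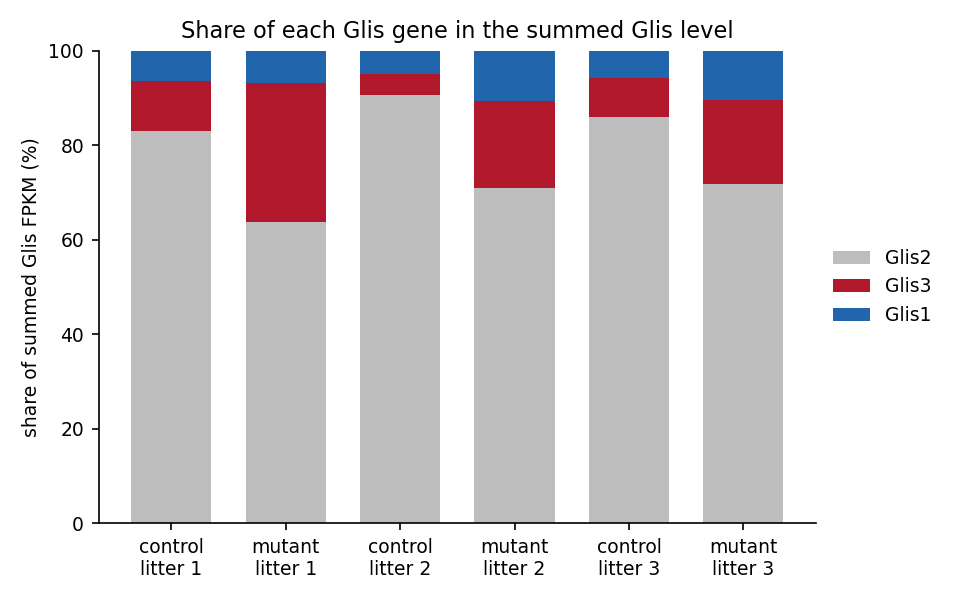
Share of each gene in the summed Glis FPKM of a column, in percent, for the control and mutant column of each litter. The Glis3 share is 4.39% to 10.5% in controls and 17.8% to 29.4% in mutants.

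Set beside the Shox2 left in each mutant column, the Glis3 ratios had no single order. Litters 1 and 2 held similar shares of control Shox2, 7.68% and 8.25%, with Glis3 ratios of 2.63 and 5.35. Litter 3 held 46.2% of control Shox2 and had the lowest Glis3 ratio, 2.26. Glis1 had its lowest ratio, 1.01, in litter 1, where the least Shox2 was left.

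Glis3 was the only one of the 3 genes in the deposited list, which has 1352 distinct symbols. No source used here states how the list was made. It may rest on these same columns, so membership is not independent evidence of direction. By exact symbol, 949 tested rows were in the list, 7.71% of all tested. Their median log2 difference was 0.09, against -0.04 over all tested rows. An increase in 3 of 3 litters was found in 36.9% of listed rows, mutants above every control in 14.5%, a ratio of at least 2 in each litter in 12, or 1.26%, and a larger mean difference than that of Glis3 in 3. Of the 7 Gli and Zic relatives followed, Gli3 and Zic5 were listed too.

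The Gli genes, the closest relatives with a known role in the limb, did not pass the test. Gli1, an activator whose transcription reports hedgehog signalling, was at 13.6, 33.7 and 30.0 FPKM in the controls and at 6.75, 20.2 and 19.7 FPKM in the mutants of litters 1, 2 and 3. Each mutant was below its own litter's control, but the groups overlapped because litter 1 was low in both. The log2 difference of Gli1 was -0.74 (SE 0.49), with a limma adjusted p of 1.00, or 0.0848 with litter as a replicate block. Gli3, which acts mainly as a repressor in the limb, was at 23.9, 19.4 and 25.3 FPKM in controls and at 26.8, 29.6 and 31.2 FPKM in mutants. The mutants of Gli3 were above every control by a small margin, with a log2 difference of 0.35 (SE 0.15) and a limma adjusted p of 1.00, or 0.384 with the block. Gli2, the main hedgehog-dependent activator, had a log2 difference of 0.01 (SE 0.23).

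Zic genes encode relatives with roles in midline, neural and somite development. Zic2 was at 1.98, 2.21 and 1.60 FPKM in controls and at 2.59, 3.60 and 3.78 FPKM in mutants, without overlap. Zic1 was at 0.361 to 2.97 FPKM in controls and 0.736 to 2.62 FPKM in mutants and did not separate the groups. Zic4 and Zic5 did not pass the filter. Gli3 and Zic2 were the 2 of 5 tested genes with every mutant above every control, where 4.22% of all rows tested had this pattern. Of the 5 Gli and Zic genes tested here, limma called 0 in either direction after adjustment. Before adjustment 1 gene was higher and 0 lower at a p under 0.05, and the block gave 2 genes higher and 1 gene lower. The unadjusted shares over all rows were 2.21% higher and 1.36% lower, and with the block 5.34% higher and 6.29% lower. The median log2 difference of the 5 genes was 0.10.

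Transcripts of proteins reported to bind Glis factors were present at moderate to high levels and did not differ past the threshold. Sufu, a cytoplasmic inhibitor of Gli proteins that also binds Glis3, was at 7.99, 24.0 and 20.0 FPKM in controls and at 6.52, 20.2 and 20.2 FPKM in mutants. Like Glis2 and Gli1, it was lowest in both columns of litter 1. Wwtr1, which encodes the coactivator TAZ, was at 34.3 to 35.0 FPKM in controls and 32.7 to 41.2 FPKM in mutants. The ubiquitin ligase gene Itch, the corepressor gene Ctbp1 and the catenin genes Ctnnb1 and Ctnnd1 had log2 differences of 0.13, -0.07, 0.03 and 0.06. All 6 partners were tested, and limma called 0, with 0 at an unadjusted p under 0.05 with or without the block and a median of 0.04.

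Reported Glis3 targets from other tissues were mostly at or near 0. The insulin genes Ins1 and Ins2 were listed at 0 in all columns, and Neurog3, a factor of endocrine progenitors, reached at most 0.0942 FPKM. Slc5a5 and Slc26a4, thyroid iodide transporter genes, reached at most 0.299 and 0.105 FPKM. Fgf18, a growth factor of skeletal tissue, was at 16.6, 30.4 and 19.0 FPKM in controls and at 13.7, 24.7 and 20.3 FPKM in mutants, which overlapped. Ccnd2, a D-type cyclin, was at 76.9, 149.7 and 144 FPKM in controls and at 71.5, 128 and 154 FPKM in mutants, which overlapped too. Only these last 2 of 7 genes passed the filter. Limma called 0 of them, with 0 at an unadjusted p under 0.05 with or without the block, and their median log2 difference was -0.12.

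Nephronophthisis genes, whose products act at the primary cilium as Glis2 is reported to do, were expressed, and none passed the test. Of 18 genes, 17 passed the filter and limma called 0, with 0 at an unadjusted p under 0.05 with or without the block. Their median log2 difference was 0.06. The smallest unadjusted p values belonged to Wdr19, Rpgrip1l and Ttc21b, a transport protein, a transition zone protein and another transport protein of the cilium. Wdr19 was at 6.76, 3.72 and 6.28 FPKM in controls and at 7.34, 7.33 and 6.97 FPKM in mutants, without overlap and with a limma adjusted p of 1.00. Wdr19 and Iqcb1 were the 2 of 17 genes with every mutant above every control, where 4.22% of all rows had this pattern.

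**Figure D4:**
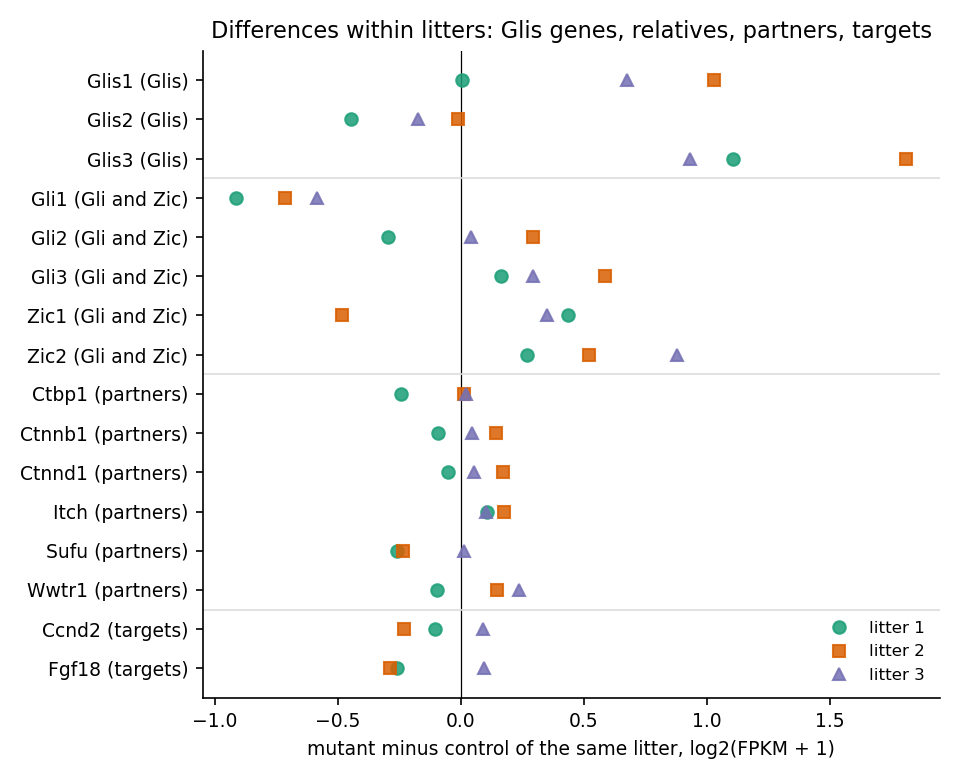
Mutant minus control in log2(FPKM + 1) within each litter, 1 point per litter, for the Glis genes, 5 Gli and Zic genes, and the reported Glis partners and reported Glis3 targets that passed the filter. The 3 Glis3 points lie at 0.93 to 1.81 and those of Gli1 at -0.91 to -0.58, while the points of partners and targets lie nearer to 0.

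The protein-coding genes beside each Glis gene in RefSeq order, 2 on each side, were looked up in the table. None of those with a value had every mutant above every control, as Glis3 had, a pattern of 4.22% of all rows tested. At that share, none among so few genes is not read as a result. Beside Glis3, Rfx3, a ciliogenic factor, was at 3.40, 4.22 and 3.94 FPKM in controls and at 4.81, 5.11 and 3.77 FPKM in mutants, with a limma adjusted p of 1.00. Slc1a1, a glutamate transporter gene on the other side, was at 0.412 to 1.59 FPKM in controls and 0.422 to 0.612 FPKM in mutants, and it is in the deposited list as Glis3 is. Pum3, an RNA-binding protein gene beyond Rfx3, is listed there too under its older symbol, and had a log2 difference of -0.14. The list held 7.71% of all rows tested. The overlapping noncoding gene D930032P07Rik was at most 0.0421 FPKM. Beside Glis1, Ndc1 and Yipf1 on one side and Lrp8 on the other had log2 differences of 0.09, -0.13 and 0.04. Dmrtb1 beside Glis1 and 4430402I18Rik beside Glis3 did not pass the filter, at no more than 0.140 and 0.0698 FPKM. Beside Glis2, Tfap4, Srl, Coro7 and Vasn had log2 differences of -0.04, 0.13, -0.28 and -0.07. Pam16 overlaps Glis2, and it was at no more than 1.44 FPKM. The other overlapping genes, Gm35866 at Glis3 and Gm46866, 4930552P06Rik and Gm52673 at Glis1, were not analysed here.

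The rows most like each Glis gene over the 6 columns were found by Pearson's r of log2(FPKM + 1) among 12108 other single-gene rows. The columns share litters and genotypes, so a high r is a description of these 6 columns. Closest to Glis3 were Chrdl1, a secreted BMP antagonist, 1190002N15Rik and Fgf12, an intracellular fibroblast growth factor homologue, with r of 0.992, 0.991 and 0.990. All 3 were in the deposited list, which held 7.71% of all rows tested. The list may rest on these same columns, so this is not independent of the match. Fgf12 was at 0.910, 0.575 and 0.961 FPKM in controls and at 1.73, 1.63 and 1.52 FPKM in mutants. It passed the filter through the mutant columns alone. Chrdl1 was at 14.2, 9.40 and 13.2 FPKM in controls and at 27.6, 28.8 and 28.1 FPKM in mutants, with its lowest control in litter 2, as for Glis3. Closest to Glis1 were Cnot8, a deadenylase subunit, Cyp26b1, which clears retinoic acid, and Kat6b, a histone acetyltransferase, with r of 0.984, 0.980 and 0.980. Cyp26b1 was at 15.2, 16.0 and 18.7 FPKM in controls and at 17.5, 30.8 and 25.2 FPKM in mutants, so its litter 1 mutant too was among the controls. Closest to Glis2 were Mta2, a subunit of the NuRD repressor complex, Zdhhc1, a palmitoyltransferase, and Col6a2, a collagen VI chain, each with r of 0.998. Col6a2 was at 66.5, 103 and 99.1 FPKM in controls and at 44.4, 103 and 89.3 FPKM in mutants, low in litter 1 as Glis2 was.

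Among marker lists of other cells, the summed levels for osteoblasts and hypertrophic cartilage, for endothelium and for surface ectoderm were lower in the mutant of each litter, where Glis3 was higher. For osteoblasts and hypertrophic cartilage the 8 measured genes summed to 19.2 to 39.1 FPKM in controls and 6.48 to 17.7 FPKM in mutants. In 3 of 3 litters 6 of 8 were lower, among them 5 of the 5 that passed the filter, against 22.3% of all rows tested. The sums did not overlap between the groups. In 3 of these 5 every mutant was below every control, against 5.03% of all rows tested. Ibsp, Bglap and Col10a1, markers of mature osteoblasts and hypertrophic chondrocytes, were at 0 in at least 1 column. Of its 5 tested genes limma called 0, with 3 lower at an unadjusted p under 0.05, or 5 with the block, where the shares of all rows were 1.36% and 6.29%. Its most abundant gene, Runx2, the master factor of osteoblasts, was at 9.10, 20.0 and 19.3 FPKM in controls and at 3.62, 10.4 and 11.1 FPKM in mutants. Endothelial markers, 6 measured, summed to 5.06 to 12.9 FPKM in controls and 4.80 to 4.93 FPKM in mutants, and none was at 0. Of these, 2 of 6 were lower in 3 of 3 litters, among them 1 of the 3 that passed the filter, against 22.3% of all rows tested. The endothelial sums did not overlap, and 1 of the 3 that passed the filter had every mutant below every control. Surface ectoderm markers, 7 measured, summed to 16.7 to 33.2 FPKM in controls and 13.8 to 17.7 FPKM in mutants, with log2 ratios of -0.28, -0.91 and -0.27 in litters 1, 2 and 3, and none was at 0. Their sums overlapped between the groups, and 2 of 7 were lower in 3 of 3 litters. The part of these lists in the Glis3 difference was not tested. Sums of muscle, nerve and glia, red cell, leukocyte and chondrocyte markers overlapped between the groups. For each of these lists the litters differed in sign, at 0.98, -0.85 and 0.43 in log2 for muscle in litters 1, 2 and 3, while Glis3 was higher in each. The most abundant gene of most of these lists overlapped between the groups, as for Pecam1 of endothelium at 0.648 to 3.81 FPKM in controls and 1.06 to 1.26 FPKM in mutants, and Hbb-y of red cells at 267 to 409 FPKM and 182 to 567 FPKM. The cartilage collagen gene Col2a1, the muscle actin gene Actc1, the axonal growth gene Gap43 and the leukocyte gene Coro1a overlapped too, as did Col1a1 of the mesenchyme list. Of the 8 chondrocyte markers, 2 had every mutant above every control, as Glis3 had, against 4.22% of all rows tested. These were Sox5 and Sox6, partners of Sox9 in cartilage. Sox5, which is in the deposited list, was at 5.19, 6.33 and 6.86 FPKM in controls and at 10.1, 12.7 and 10.2 FPKM in mutants, with a limma adjusted p of 0.732. Sox6 was at 8.10, 6.98 and 8.09 FPKM in controls and at 11.3, 9.60 and 9.73 FPKM in mutants, with a limma adjusted p of 1.00. The part of Sox5 and Sox6 in the Glis3 difference was not tested. Going the other way, Matn1 of the same list was lower in 3 of 3 litters. It was at 40.9, 43.9 and 64.6 FPKM in controls and at 24.0, 43.0 and 39.9 FPKM in mutants. The remaining chondrocyte markers differed in sign between litters. The keratin gene Krt18 of surface ectoderm did not overlap, at 8.10 to 9.69 FPKM in controls and 5.41 to 6.07 FPKM in mutants. Every mutant was below every control in 5.03% of all rows tested. The part of Krt18 in the Glis3 difference was not tested.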

How the data were processed

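RNA from sorted limb cells was sequenced, and the authors handled reads with TopHat and Cuffdiff on mm9, per the submitters' processing notes. Versions, annotation and filters: not given in the sources used here. The deposited values were taken as FPKM, normalised by Cuffdiff's geometric method per the file headers, which do not name the unit and state the scaling for each litter. Levels set across litters may thus rest on separate scalings. The deposited gene list holds other content, symbols without values. Column sums ran from 347708 to 439109 FPKM, which is no depth, and depth is unknown.

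Mutants and controls (3 columns each) were compared on log2(FPKM + 1) by limma 3.58.1 (R 4.3.3, trend option) for 12314 of 24102 rows at 1 FPKM or more in at least 3 columns. P-values were adjusted by Benjamini-Hochberg with a threshold of 0.05. The planned design was kept, but the table gave 1 mutant column per litter. Nothing says how many embryos a column holds, so p-values measure the spread between columns. The numbers pair the columns because the labels name litters. Deviations from group means correlated at 0.87, 0.57 and 0.77 across rows within litters 1, 2 and 3. The fit was tested on simulated data. It recovered 50% of rows with a log2 change of 1 and 80% of rows with a log2 change of 2. The simulated noise was independent between columns, without the correlation within litters given above. These shares may therefore not hold for the real columns.

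The members and lists were chosen with earlier results of these data known. Named were the Glis genes, Shox2, the relatives, partners and targets, the 3 cilium genes with the smallest p, the 3 rows most like each member and the most abundant gene of each marker list. Sox5, Sox6, Matn1, Iqcb1, Ibsp, Bglap, Col10a1, Prrx1, Eif2s3y, Xist and the genes flanking each member were added after values were seen. Alternatives covered the pseudocount, filter, scaling, block, column weights and left-out columns. RefSeq names and promoters are of GRCm38.p6, and no coordinates of mm9 are given. 1 gene of the list of relatives is not reported here.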

Additional observations from a re-analysis of the deposited data

How the results depend on the processing

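Leaving out each column in turn gave log2 differences of 1.09 to 1.39 for Glis3, 0.36 to 0.89 for Glis1 and -0.41 to 0.0712 for Glis2, whose direction turned without mutant replicate 1. The Glis3 difference was 1.61 with a pseudocount of 0.1 and 1.02 without the litter 2 pair, and it stayed above 0 in all 14 settings tried. Glis1 also stayed above 0 in 14 settings, moving by less than 1 SD between columns. When whole litter pairs were left out, the Glis2 difference stayed below 0, at -0.31 to -0.09. With a mean of 5 FPKM or more required, Glis1 and Glis3 left the table and gave no value. The number of rows called by limma was 0 with litter as a replicate block, 15 with column weights and 0 to 1 when a column was left out, with 1 each without control replicate 3 and without mutant replicate 3. At an unadjusted p under 0.05 the block raised the number from 439 to 1433. Depth is unknown, so the counting error of genes at 1 to 3 FPKM, Glis1 and control Glis3 among them, cannot be given.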
